A study of Mus musculus with 12 samples.

Results

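Elastic fibre and microfibril genes were followed across whole hearts of 4 mouse genotypes, as the probe sets annotated to exactly 1 of 10 listed genes. The list holds Eln, Fbn1, Fbln1, Fbln2, Fbln5, Mfap2, Mfap4, Mfap5, Emilin1 and Emilin2. Of these, 9 had a probe set of their own, 1 each, among 22180 genes measured, and no probe set was annotated to Fbn1, so that it could not be followed. Heart RNA came from male FVB mice aged 15 weeks, with 3 hearts, each on 1 Affymetrix Mouse Gene 2.0 ST array, for WT mice, ErbB2 KI mice (an ErbB2 cDNA knock-in with reduced function of the receptor), ERRα KO mice and KI:KO mice, which carry both alleles. Neither allele was limited to the heart muscle cell. The values are RMA-normalised signals on a log2 scale, in which a difference of 1 is a doubling. Because RMA values depend on the probes, levels are compared between hearts for 1 gene and not between genes.

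Elastic fibres give arteries, heart valves and the cardiac interstitium their recoil. They consist of a core of cross-linked elastin laid down on a scaffold of fibrillin microfibrils, and fibulins, microfibril-associated glycoproteins and emilins sit within or between these layers. Most are secreted by fibroblasts, smooth muscle cells and valve cells, and microfibrils also hold latent TGF-β in the matrix.

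RefSeq promoter sequence was at hand for 7 of the 10 listed genes, Fbn1 among them. It was missing for Eln, Mfap4 and Mfap5, each of which was called in KI:KO hearts below. The stretches just upstream of an annotated start are shown for Fbln1, Fbln2 and Emilin2, which were each called in a comparison with WT below. The capitals mark the SMAD box CAGAC or, on the other strand, GTCTG, a short motif bound by the SMAD proteins of the TGF-β pathway, and in Fbln2 the GC box GGGCGG, here as CCGCCC on the other strand. The Fbln1 window is chr15:85205699-85205948 on the plus strand, the Fbln2 window chr6:91212514-91212763 on the plus strand and the Emilin2 window chr17:71311557-71311806 on the minus strand of GRCm38.p6, each written from 5′ to 3′.
Fbln1: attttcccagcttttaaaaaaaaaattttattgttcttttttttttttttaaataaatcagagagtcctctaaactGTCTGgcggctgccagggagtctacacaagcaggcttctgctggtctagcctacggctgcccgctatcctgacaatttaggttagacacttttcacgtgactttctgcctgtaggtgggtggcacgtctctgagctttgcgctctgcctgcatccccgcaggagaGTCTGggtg
Fbln2: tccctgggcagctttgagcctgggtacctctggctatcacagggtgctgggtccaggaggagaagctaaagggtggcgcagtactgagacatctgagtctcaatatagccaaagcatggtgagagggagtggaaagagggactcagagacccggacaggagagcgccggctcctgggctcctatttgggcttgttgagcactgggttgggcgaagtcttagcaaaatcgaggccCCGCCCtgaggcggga
Emilin2: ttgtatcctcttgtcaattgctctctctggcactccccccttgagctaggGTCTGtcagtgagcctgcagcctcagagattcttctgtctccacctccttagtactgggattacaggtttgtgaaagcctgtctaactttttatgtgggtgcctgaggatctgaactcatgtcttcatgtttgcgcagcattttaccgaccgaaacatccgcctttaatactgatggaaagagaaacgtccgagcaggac
The Fbln1 window has 2 SMAD boxes, the Emilin2 window has 1 and the Fbln2 window has 0. Over the 11 windows of the 7 genes, a SMAD box was found in 7, where 42.2% of the 32851 RefSeq windows of the same length had one. By gene, 5 of 7 had a SMAD box. The GC box GGGCGG was found in 6 of 11 windows against 32.7% of all, and in 6 of 7 genes. Fbln1 and Emilin2 had theirs in a window not shown. The share of all genes with a box in any of their windows was not counted. A gene with several windows has more chances of a match, so the counts by gene have no background. The short site AAGGTCA, to which nuclear receptors bind, was in 0 of 11 windows against 4.08% of all, and the longer TNAAGGTCA, the form read by ERRα, which contains the short site, was in 0 of 11 against 1.14%. Both strands of the windows, each of 250 bases, were searched for each motif. At such low shares, 0 of 11 is a likely outcome for any genes. It does not show that these genes lack such sites, and sequence outside the windows was not searched. A match is a run of letters and no evidence of binding.

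The targeted genes were checked first. On the log2 scale, Esrra, which encodes ERRα, fell by 1.19 (ERRα KO) and fell by 1.32 (KI:KO), with adjusted p = 1e-04 and 3.36e-05 in limma. For Erbb2 the change was -0.66 in KI:KO hearts (adjusted p = 0.00885) and -0.71 with the knock-in alone, which did not pass (adjusted p = 0.199). Array medians lay between 4.58 and 4.65. On the first principal component of the deviations within genotypes, which held 26.3% of their variance, 4 arrays stood apart from the rest. These were replicate 2 of WT, replicate 3 of ErbB2 KI, replicate 2 of ERRα KO and replicate 3 of KI:KO, 1 per genotype. Deviations within a genotype cancel out, so each genotype was bound to have arrays on both sides of this component. Their presence in every genotype is therefore no finding. These 4 arrays also had the lowest SDs of their log2 values, from 2.159 to 2.185, where the other arrays had 2.198 to 2.233. The cause of this narrower spread was not tested. Counts without these 4 arrays are given beside the results, and their omission also leaves fewer hearts, which can itself end calls.

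Of the elastic fibre and microfibril genes, Eln, Fbln1, Fbln2, Mfap4 and Mfap5 rose in KI:KO hearts against WT, and Emilin2 rose in ERRα KO hearts. All 9 measured genes had a positive change in KI:KO hearts against WT, from 0.18 for Mfap2 to 1.42 for Mfap5, with a median of 0.65 where that of all genes tested was -0.01. Calls were made in limma, fitted to all 12 arrays, where the p adjusted by Benjamini-Hochberg across the 22180 genes was under 0.05. By this rule 5 of 9 rose and 0 fell, where 2.94% of all genes tested rose, and at an unadjusted p under 0.05 it was 7 against 8.53% and again 0 fell. In 7 of 9 all KI:KO arrays lay above all WT arrays, which held for 10.7% of all genes. The genes and lists were chosen with earlier results of these data known. An excess over the shares of all genes, here or below, is therefore no independent evidence. In whole hearts, a change in the number of the cells that make these proteins and a change in the RNA per cell cannot be told apart.

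**Figure D1:**
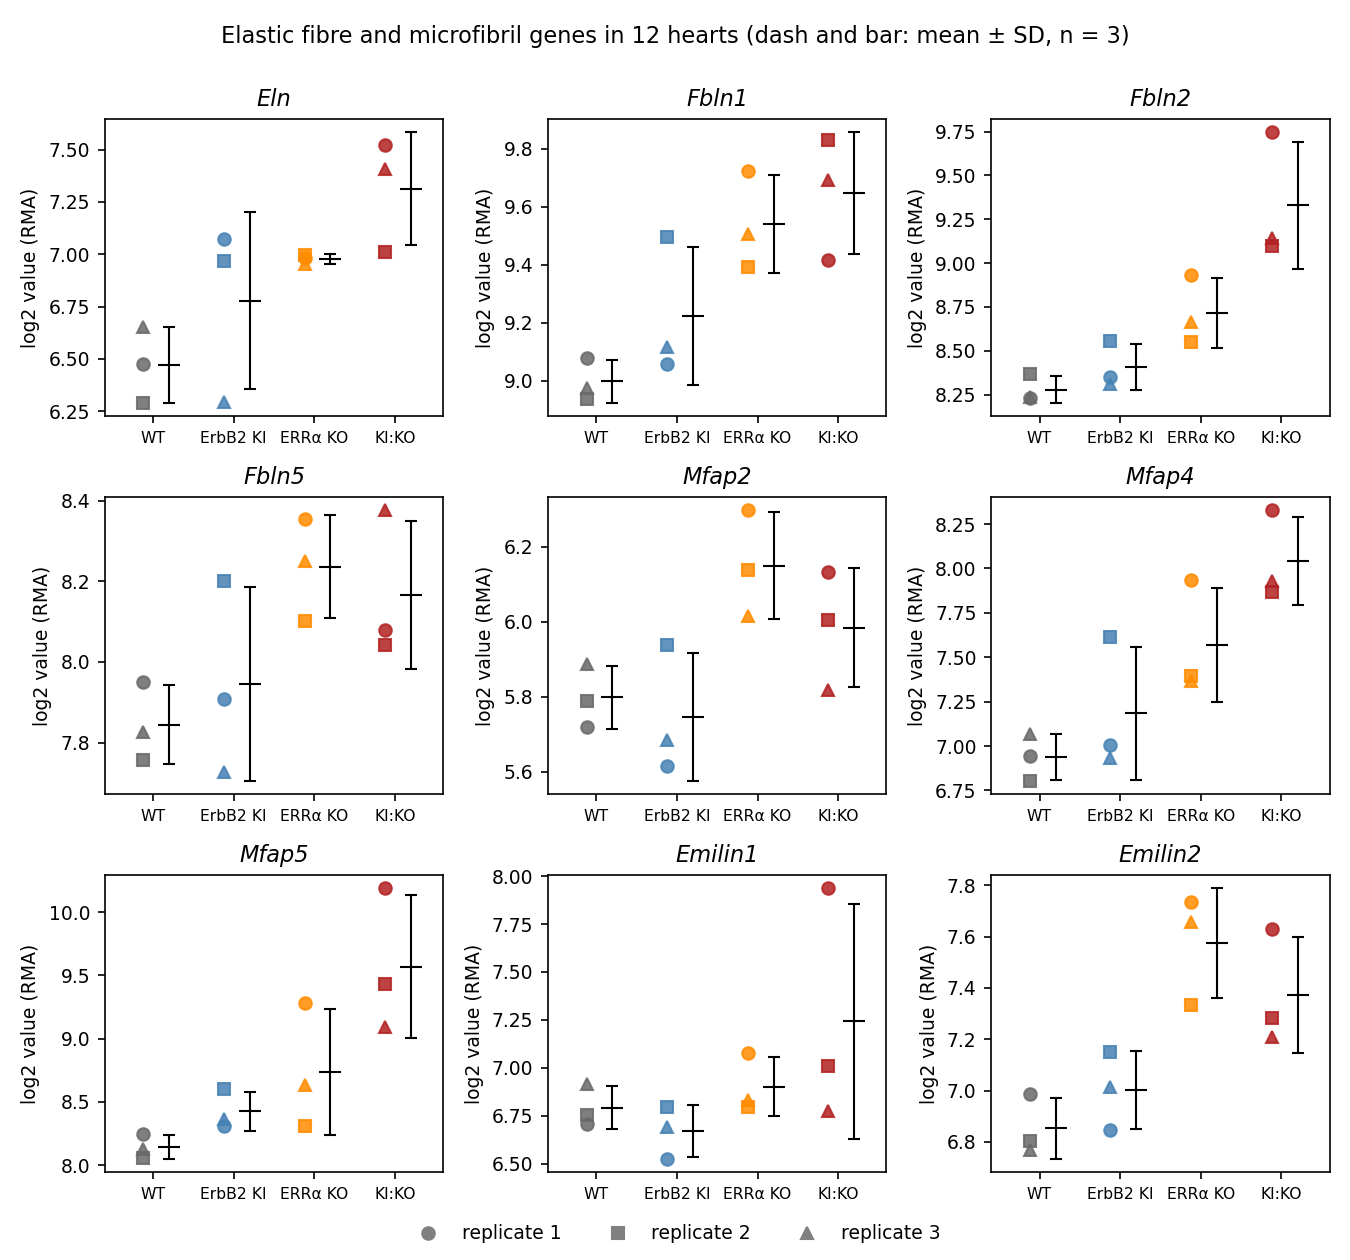
Log2 RMA values of the 9 measured elastic fibre and microfibril genes (vertical axes, 1 panel a gene, each with its own scale) in hearts of the 4 genotypes, with 1 symbol per heart and, beside it, the mean and SD of 3 hearts. In the Fbln2 panel the 3 KI:KO hearts, at 9.10 to 9.75, lie above all other hearts, and in the Emilin1 panel KI:KO replicate 1 lies alone at 7.94.

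The elastin core was followed through Eln, which encodes tropoelastin, the soluble monomer of elastin (chromosome 5, 134702595 to 134747368 on GRCm38.p6). Its log2 values were 6.48, 6.29 and 6.65 for WT hearts, 7.07, 6.97 and 6.29 for ErbB2 KI hearts, 6.98, 7.00 and 6.95 for ERRα KO hearts and 7.52, 7.01 and 7.41 for KI:KO hearts. All hearts without ERRα were above all WT hearts, and the ErbB2 KI hearts were split, with replicate 3 as low as the lowest WT heart. Eln rose 1.79-fold in KI:KO hearts against WT (log2 change 0.84 ± 0.19 SE, limma adjusted p = 0.0247). The change of 0.50 in ERRα KO hearts did not pass (adjusted p = 0.270), nor did that of 0.31 in ErbB2 KI hearts (adjusted p = 0.955, 95% interval -0.11 to 0.73). The call of Eln in KI:KO hearts ended without WT replicate 1 (adjusted p = 0.0781), WT replicate 2 (0.0962), KI:KO replicate 1 (0.0995) or KI:KO replicate 3 (0.0673).

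Among the fibulins, a family of calcium-binding glycoproteins that tie elastin to microfibrils and basement membranes, Fbln2 and Fbln1 rose in KI:KO hearts. Fbln2, which binds both tropoelastin and fibrillin (chromosome 6, 91212460 to 91272540), had log2 values of 8.23, 8.37 and 8.24 for WT, 8.35, 8.55 and 8.31 for ErbB2 KI, 8.93, 8.55 and 8.66 for ERRα KO and 9.75, 9.10 and 9.14 for KI:KO hearts. Each KI:KO heart was above the other 9 hearts, and ErbB2 KI replicate 2 and ERRα KO replicate 2 lay at about the same level. Fbln2 rose 2.07-fold in KI:KO hearts against WT (log2 change 1.05 ± 0.16 SE, limma adjusted p = 0.00294), and this call held with any 1 array left out. In ERRα KO hearts its change was 0.44 (adjusted p = 0.258) and in ErbB2 KI hearts 0.13 (adjusted p = 0.996, 95% interval -0.23 to 0.48).

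Fbln1, a fibulin of elastic fibre cores and basement membranes (chromosome 15, 85205949 to 85286294), stood at 9.08, 8.94 and 8.98 in WT hearts. It was 9.06, 9.49 and 9.12 for ErbB2 KI, 9.72, 9.39 and 9.51 for ERRα KO and 9.42, 9.83 and 9.69 for KI:KO hearts. Both genotypes without ERRα were above WT in every heart, they overlapped each other, and ErbB2 KI replicate 2 reached their range. Fbln1 rose 1.57-fold in KI:KO hearts (log2 change 0.65 ± 0.14 SE, limma adjusted p = 0.0196), while its change of 0.54 in ERRα KO hearts did not pass (adjusted p = 0.0771). The KI:KO call ended without WT replicate 2 (adjusted p = 0.0704), WT replicate 3 (0.0683), KI:KO replicate 2 (0.0772) or KI:KO replicate 3 (0.0518). Fbln5, which delivers tropoelastin to the microfibril scaffold and is required for elastic fibre assembly (chromosome 12, 101746565 to 101819119), had means of 7.84 ± 0.10 (SD, n = 3) in WT, 7.94 ± 0.24 for ErbB2 KI, 8.24 ± 0.13 for ERRα KO and 8.16 ± 0.18 for KI:KO hearts. Its hearts without ERRα were all above WT, yet the changes of 0.39 and 0.32 did not pass (adjusted p = 0.206 and 0.234).

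The microfibril-associated proteins Mfap4 and Mfap5 had the largest KI:KO changes of the 9 genes. Mfap5 encodes MAGP-2, a small glycoprotein bound to fibrillin microfibrils (chromosome 6, 122513584 to 122529290). Its log2 values were 8.25, 8.06 and 8.13 for WT hearts, 8.31, 8.60 and 8.37 for ErbB2 KI, 9.28, 8.30 and 8.63 for ERRα KO and 10.19, 9.43 and 9.09 for KI:KO hearts. All mutant hearts were above all WT hearts, and KI:KO overlapped with ERRα KO only through ERRα KO replicate 1, which exceeded KI:KO replicate 3. Mfap5 rose 2.68-fold in KI:KO hearts against WT (log2 change 1.42 ± 0.27 SE, limma adjusted p = 0.00865). The change was 0.59 in ERRα KO (adjusted p = 0.385) and 0.28 in ErbB2 KI hearts (adjusted p = 0.992, 95% interval -0.31 to 0.87), and that in ERRα KO hearts was 0.32 without replicate 1 of that genotype.

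Mfap4, a fibrinogen-like glycoprotein that binds tropoelastin and fibrillin (chromosome 11, 61485431 to 61488708), was at 6.94, 6.80 and 7.07 in WT and at 7.00, 7.61 and 6.93 in ErbB2 KI hearts. It was at 7.94, 7.40 and 7.37 in ERRα KO and at 8.33, 7.87 and 7.93 in KI:KO hearts. Again every heart without ERRα was above WT, and replicate 1 was the highest heart of both genotypes without ERRα. Mfap4 rose 2.15-fold in KI:KO hearts (log2 change 1.10 ± 0.20 SE, limma adjusted p = 0.00752), with 0.63 in ERRα KO hearts (adjusted p = 0.174). The calls of Mfap4 and Mfap5 in KI:KO hearts held with any 1 array left out. Mfap2, which encodes MAGP-1, a microfibril protein that binds fibrillin and TGF-β (chromosome 4, 141010424 to 141015976), behaved differently from these in level order, with means of 5.80 ± 0.08 (SD, n = 3) in WT, 5.75 ± 0.17 for ErbB2 KI, 6.15 ± 0.14 for ERRα KO and 5.98 ± 0.16 for KI:KO hearts. Its changes of 0.35 in ERRα KO hearts and 0.18 in KI:KO hearts did not pass (adjusted p = 0.198 and 0.491).

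The 2 emilins, glycoproteins at the interface of elastin and microfibrils, showed patterns of their own. Emilin2 (chromosome 17, 71252172 to 71311556) had log2 values of 6.99, 6.80 and 6.77 for WT, 6.84, 7.15 and 7.01 for ErbB2 KI, 7.74, 7.33 and 7.66 for ERRα KO and 7.63, 7.28 and 7.21 for KI:KO hearts. All 6 hearts without ERRα were above all 6 hearts with it, the only measured gene of the 9 for which this held. Of all genes tested, 2.23% showed this order. Emilin2 rose 1.65-fold in ERRα KO hearts (log2 change 0.72 ± 0.14 SE, limma adjusted p = 0.0199), and its change of 0.52 in KI:KO hearts was just outside the threshold (adjusted p = 0.0544). The ERRα KO call ended without WT replicate 2 (adjusted p = 0.0757), WT replicate 3 (0.0856), ERRα KO replicate 1 (0.0869) or ERRα KO replicate 3 (0.0872), while Emilin2 passed in KI:KO hearts without ERRα KO replicate 2 (0.0403) or KI:KO replicate 3 (0.0471). Emilin1, which also restrains the maturation of TGF-β (chromosome 5, 30913387 to 30921279), had means of 6.79 ± 0.11 (SD, n = 3) in WT, 6.67 ± 0.14 for ErbB2 KI, 6.90 ± 0.15 for ERRα KO and 7.24 ± 0.61 for KI:KO hearts. Its KI:KO change of 0.45 (adjusted p = 0.359) rested on KI:KO replicate 1, at 7.94 beside 7.01 and 6.78, and was 0.10 without that heart.

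**Figure D2:**
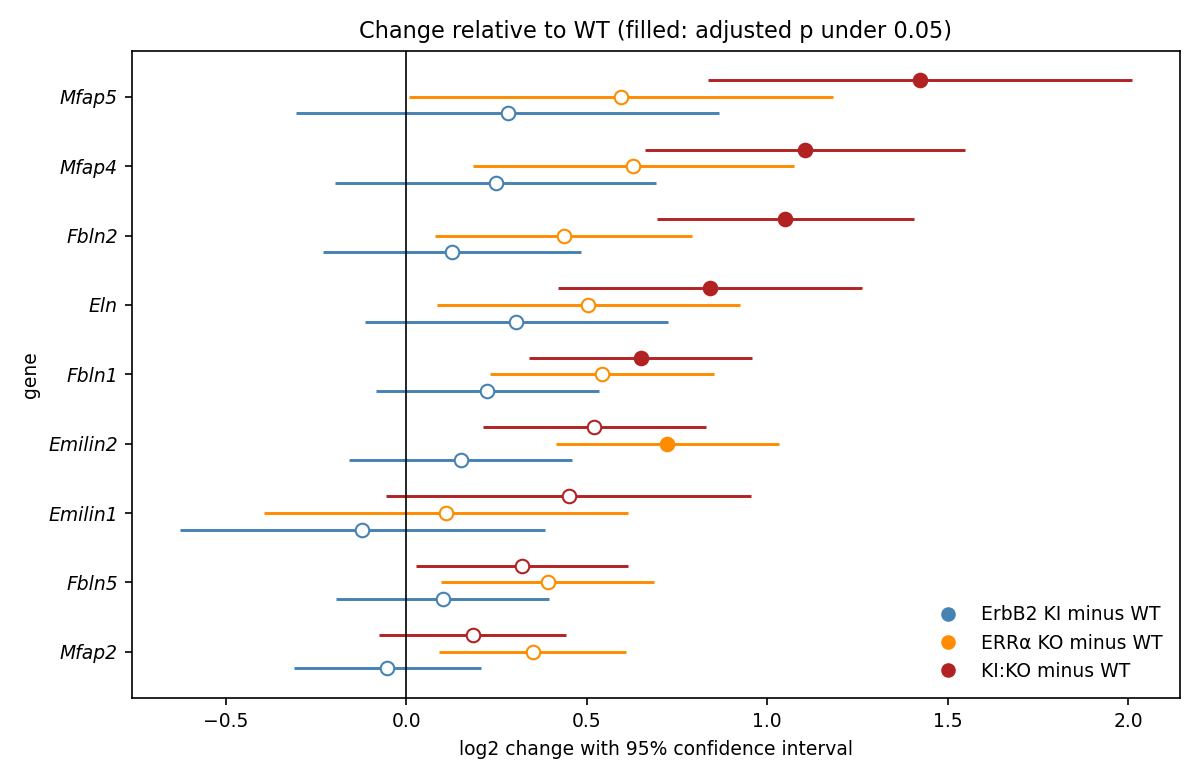
Log2 change against WT with its 95% confidence interval (horizontal axis) for each measured gene (vertical axis), in each of the 3 mutant genotypes, with filled points for an adjusted p under 0.05. Filled points are the 5 KI:KO changes of Mfap5, Mfap4, Fbln2, Eln and Fbln1, from 1.42 down to 0.65, and Emilin2 at 0.72 in ERRα KO hearts, and the 3 comparisons share the WT hearts.

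In ERRα KO hearts against WT, all 9 genes had a positive change, from 0.11 for Emilin1 to 0.72 for Emilin2, with a median of 0.50 where that of all genes was 0.00. Only Emilin2 was called, 1 of 9, where 1.14% of all genes rose. At an unadjusted p under 0.05, 8 of 9 were higher, the exception being Emilin1, where 5.94% of all genes were. The same 8 had all ERRα KO arrays above all WT arrays, as 9.24% of all genes had. In ErbB2 KI hearts, limma called 0 of 9 genes, and 0 had an unadjusted p under 0.05, where 0.00451% and 2.91% of all genes were higher by those rules. The test of the study's methods, run on the 2 groups and adjusted, called 0 as well. The ErbB2 KI changes ran from -0.12 for Emilin1 to 0.31 for Eln, and only Mfap5 had all arrays above WT, against 5.59% of all genes. These comparisons and that of KI:KO share the 3 WT hearts, so a WT heart that is low in several of these genes enters all of them, and WT replicate 2 was the lowest of the 12 hearts in 4 genes. With 3 hearts against 3, the smallest exact permutation p of a single gene is 0.1.

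The question of what each allele adds in the presence of the other was met by comparing KI:KO with each single model. Against ErbB2 KI hearts, Fbln2, Mfap4 and Mfap5 rose in KI:KO hearts, 3 of 9, where 2.22% of all genes rose. At an unadjusted p under 0.05 it was 7 of 9 against 7.95% of all genes. The log2 changes were 0.92 for Fbln2 (limma adjusted p = 0.00855), 0.86 for Mfap4 (adjusted p = 0.0381) and 1.14 for Mfap5 (adjusted p = 0.0367). In these genes and in Emilin2 all KI:KO arrays were above all ErbB2 KI arrays, 4 of 9 against 9.88% of all genes. The call of Fbln2 held with any 1 array left out. That of Mfap4 ended (adjusted p from 0.0504 to 0.145) on omission of each WT array, each KI:KO array, and ErbB2 KI replicate 1 or 3. That of Mfap5 ended (adjusted p from 0.0518 to 0.126) on omission of each WT array, each ErbB2 KI array, ERRα KO replicate 3, and KI:KO replicate 1 or 2.

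Against ERRα KO hearts, limma called 0 of 9 genes in KI:KO hearts, where 0.198% of all genes rose, and the methods' test called 0. At an unadjusted p under 0.05, Fbln2 (0.61), Mfap5 (0.83) and Mfap4 (0.48) were higher, 3 of 9 against 5.58% of all genes. Without KI:KO replicate 1 the first 2 changes were 0.41 and 0.52. The adjusted p was 0.154, 0.258 and 0.436, and the 95% intervals ran from 0.26 to 0.97, from 0.24 to 1.42 and from 0.03 to 0.92. In Eln and Fbln2 all KI:KO arrays were above all ERRα KO arrays, 2 of 9 where 7.3% of all genes were. Changes of the opposite sign were those of Fbln5 (-0.07), Mfap2 (-0.17) and Emilin2 (-0.20), none of which passed.

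Averaged over both ErbB2 genotypes, 6 of 9 genes rose with the loss of ERRα, where 3.5% of all genes did. At an unadjusted p under 0.05 it was 8 of 9 against 8.9%. To the 5 genes called in KI:KO hearts this comparison of 6 hearts with 6 adds Emilin2, and the log2 changes were 0.52 for Eln, 0.48 for Fbln1, 0.68 for Fbln2, 0.74 for Mfap4, 0.87 for Mfap5 and 0.55 for Emilin2 (limma adjusted p from 0.00352 to 0.0402). Mfap2 (0.29, adjusted p = 0.0603) and Fbln5 (0.31, adjusted p = 0.0869) were just outside. Eln lost its call (adjusted p from 0.0764 to 0.0984) on omission of WT replicate 1 or 2, of each ERRα KO array, and of KI:KO replicate 1 or 3. Without ErbB2 KI replicate 2, Fbln5 (adjusted p = 0.0336) and Mfap2 (0.0346) passed, and Mfap2 also did without KI:KO replicate 3 (0.0358). The comparison reuses the hearts of those above and is no separate evidence.

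Averaged over both ERRα genotypes, the ErbB2 knock-in changed 0 of 9 genes in limma, where 0.0857% of all genes rose. At an unadjusted p under 0.05, 4 genes were higher against 4.55% of all genes, namely Eln (0.32), Fbln2 (0.37), Mfap4 (0.36) and Mfap5 (0.56). The interaction, the KI:KO change beyond the sum of the single changes, was called in 0 of 9 genes, with 0 at an unadjusted p under 0.05, where 0.00902% of all genes were called in either direction and 3.44% were higher at that p. The methods' test was not run for these averages. The interaction values ran from -0.35 for Emilin2 to 0.55 for Mfap5, and the interval of Mfap5 (-0.28 to 1.38) includes both no departure and a further doubling. For Fbln2 the value was 0.49 (adjusted p = 0.718, 95% interval -0.02 to 0.99).

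The means of the genotypes stood from low to high in the order WT, ErbB2 KI, ERRα KO, then KI:KO in 5 of 9 genes, namely Eln, Fbln1, Fbln2, Mfap4 and Mfap5, an order that 6.58% of all genes showed. Neighbours in that order mostly overlapped. ErbB2 KI was separated from WT in Mfap5 alone, and KI:KO from ERRα KO in Eln and Fbln2. KI:KO had the highest mean in 6 genes (26.6% of all genes) and ERRα KO in 3, namely Fbln5, Mfap2 and Emilin2 (22.8% of all genes). Single hearts were high or low in many of the genes at once. KI:KO replicate 1 was the highest of its genotype in 7 of 9 genes, and ERRα KO replicate 1 and ErbB2 KI replicate 2 were so in 8 of 9 each. Without the 4 arrays that stood apart, limma called 0 genes in ERRα KO hearts, Fbln2 and Mfap5 in KI:KO hearts, Mfap5 in KI:KO against ErbB2 KI hearts, and Fbln2, Mfap5 and Emilin2 for ERRα loss. With a term for those arrays in place of leaving them out, the counts were 1, 6, 3 and 6.

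Fibroblasts, the main source of the cardiac matrix, were followed through 15 marker genes, all measured. The mean log2 level of these markers was 9.20 to 9.22 for WT hearts, 9.27 to 9.43 for ErbB2 KI, 9.48 to 9.78 for ERRα KO and 9.52 to 9.99 for KI:KO hearts, beside 7.28 to 7.38, 7.35 to 7.70, 7.67 to 8.04 and 7.94 to 8.33 for the 9 elastic fibre and microfibril genes. In ERRα KO hearts 3 markers rose and in KI:KO hearts 4 did, where 1.14% and 2.94% of all genes rose. The markers' median changes were 0.37 and 0.44. Those called in KI:KO hearts were Pcolce, Mmp2, Ddr2 and Dpep1, and Dcn (0.26), Gsn (0.13) and Vim (0.45), the markers with the highest levels, did not pass. The KI:KO count was 2 without WT replicate 1 or KI:KO replicate 2 and 8 without KI:KO replicate 3, and the ERRα KO count was 1 on omitting WT replicate 1 or ERRα KO replicate 1. Without the 4 arrays that stood apart the counts were 1 (ERRα KO) and 4 (KI:KO). Dcn and Mmp2 of this list are also in the pathway lists below. Fibroblast markers thus moved with the elastic fibre and microfibril genes across genotypes, and their part in the result was not tested.

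Macrophage markers, 12 of 12 measured, had median changes of 0.43 in ERRα KO hearts and 0.81 in KI:KO hearts. Their mean level was 7.00 to 7.18 for WT, 6.99 to 7.15 for ErbB2 KI, 7.23 to 7.80 for ERRα KO and 7.76 to 7.97 for KI:KO hearts. In KI:KO hearts 9 of 12 markers rose, where 2.94% of all genes did. Lyz2 (0.98), C1qb (0.98) and Mrc1 (0.85) were among the 9. With 1 array left out 6 to 9 markers rose (6 without the 4 arrays that stood apart). For ERRα KO hearts limma called 0, and 1 without ERRα KO replicate 2. At an unadjusted p under 0.05, 7 were higher, where 5.94% of all genes were, and 2 passed the threshold of the methods' test. The part of these cells in the result was not tested.

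Smooth muscle cells of the vessel wall also make elastin, and 1 of their 11 markers rose in each genotype without ERRα, the actin gene Acta2, by 1.49 in ERRα KO hearts and 1.65 in KI:KO hearts. Myh11, the smooth muscle myosin heavy chain, had changes of 0.23 and -0.40 that did not pass (adjusted p = 0.702 and 0.292), and the list had medians of 0.22 and -0.06. The list's level was 7.10 to 7.52 in WT, 7.58 to 7.71 in ERRα KO and 7.31 to 7.48 in KI:KO hearts, so that KI:KO overlapped with WT. Of 9 pericyte markers 1 fell in ERRα KO, and 1 rose and 2 fell in KI:KO hearts (medians -0.13 and -0.13). The heart label was checked on 12 cardiomyocyte markers, whose mean level was 12.22 to 12.24 in WT and 12.01 to 12.12 in KI:KO hearts. Of these, 1 (ERRα KO) and 3 (KI:KO) fell, with medians of -0.05 and -0.10. Of 10 endothelial markers 0 and 1 fell (medians -0.04 and -0.20). Of all genes, 1.14% (ERRα KO) and 2.94% (KI:KO) rose. The share of all genes that fell was not counted, so the counts of falling markers have no background.

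For the remaining marker lists few genes were called. Of 12 markers of valve or cartilage-like matrix, limma called 0 in ERRα KO (0 also at an unadjusted p under 0.05) and 2 in KI:KO hearts, both higher, with medians of 0.24 and -0.01. It called 0 of 11 epicardial or mesothelial markers in both comparisons, with 1 lower in ERRα KO and 2 higher in KI:KO hearts at an unadjusted p under 0.05 and medians of -0.25 and 0.02. Of 8 atrial markers 0 were called, with 4 and 3 higher at an unadjusted p under 0.05 (medians 0.30 and 0.14), and of 7 adipocyte markers 0, with 4 and 2 (medians 0.68 and 0.09). At that p, 5.94% (ERRα KO) and 8.53% (KI:KO) of all genes were higher. In ErbB2 KI hearts 0 atrial and 0 adipocyte markers were called. At the unadjusted p, 5 and 4 were higher there (medians 0.37 and 0.57), where 2.91% of all genes were. The WT hearts had the lowest mean level of the 4 genotypes in both lists, 9.71 and 7.07. What this means for the comparisons with WT was not tested.

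**Figure D3:**
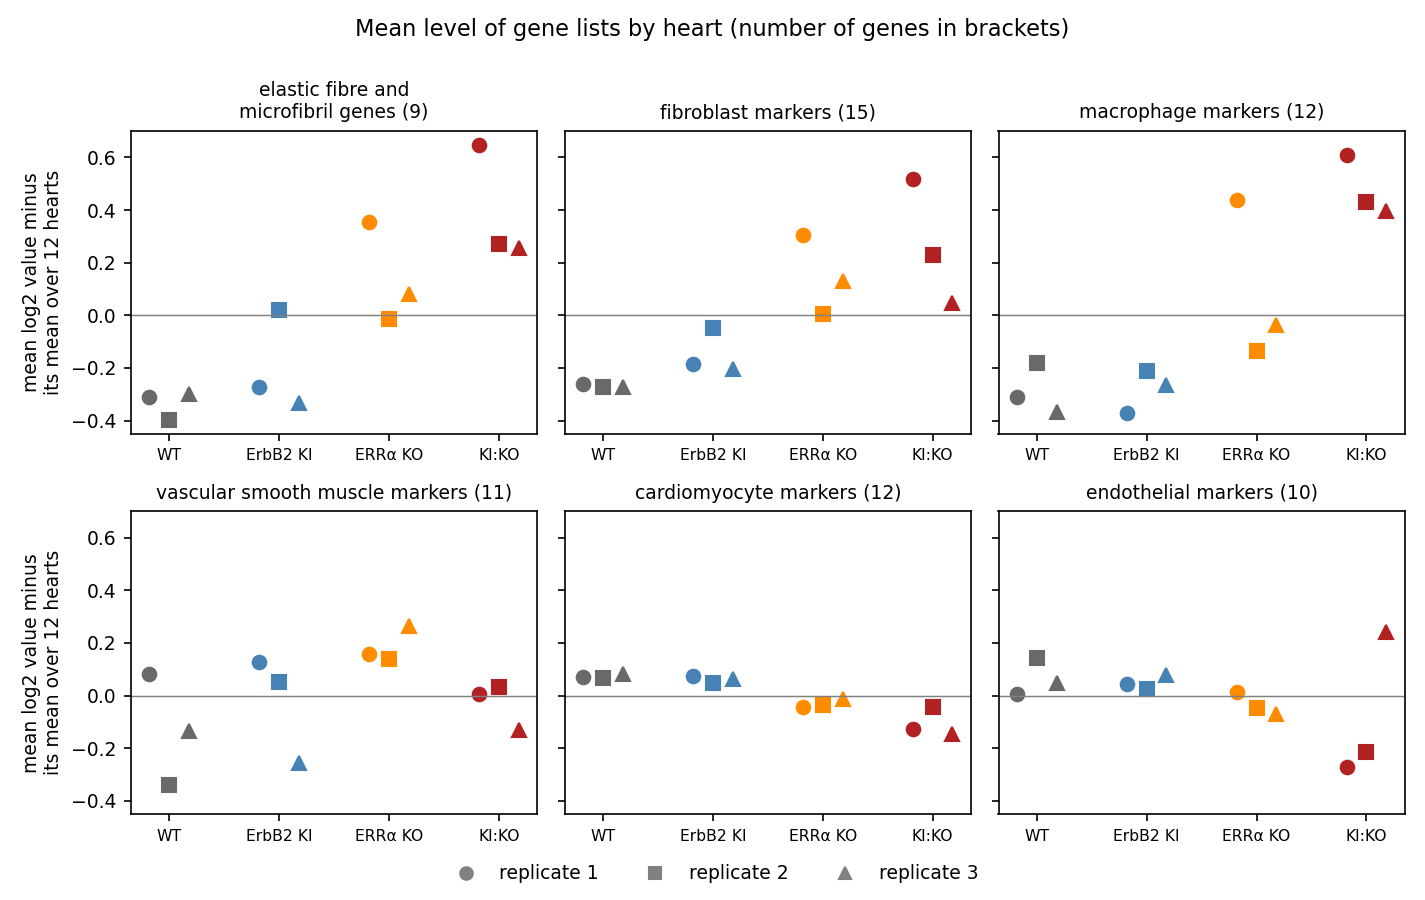
Mean log2 value of each list of genes in each heart, minus the list's mean over the 12 hearts (vertical axes), by genotype, with 1 symbol per heart. The elastic fibre and microfibril genes run from -0.40 in WT replicate 2 to 0.65 in KI:KO replicate 1, with fibroblast and macrophage markers higher in KI:KO than in WT hearts and smooth muscle markers overlapping between them.

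The rest of the pathway was described by 27 measured of 29 listed elastic fibre and microfibril proteins, Efemp2 and Loxl2 having no probe set of their own. In KI:KO hearts 7 of 27 rose in limma, where 2.94% of all genes did, and 0 fell (0 lower also at an unadjusted p under 0.05). The median change was 0.15, beside -0.01 for all genes. In ERRα KO hearts 1 rose, where 1.14% of all genes did, and 0 fell. At an unadjusted p under 0.05, 10 were higher and 0 lower, where 5.94% of all genes were higher. The median change was 0.25, beside -0.003 for all genes. The gene called in ERRα KO hearts was Adamtsl2, a secreted partner of fibrillin-1 and of latent TGF-β binding proteins. Adamtsl2 had means of 6.34 ± 0.11 (SD, n = 3) in WT, 6.74 ± 0.07 for ErbB2 KI, 7.00 ± 0.14 for ERRα KO and 7.69 ± 0.07 for KI:KO hearts, with no overlap between any 2 neighbours in that order. Against WT the gene rose by 0.66 with ERRα KO (limma adjusted p = 0.00416) and by 1.35 with both alleles (adjusted p = 2e-05). From ERRα KO to KI:KO hearts it rose by 0.69 (adjusted p = 0.0136), while the knock-in alone, with 0.40, missed the threshold (adjusted p = 0.530).

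Of the listed enzymes that cross-link tropoelastin, Lox and Loxl1 rose by 1.71 and 0.73 in KI:KO hearts (limma adjusted p = 0.0341 and 0.0338). Loxl3 and Loxl4 of the same list were not called. Loxl3 had means of 6.45 in WT and 7.62 in KI:KO hearts (SD 0.88 in KI:KO), and Loxl4 of 5.5 and 5.6. Lox was at 6.42 to 8.71 in KI:KO hearts and at 5.59 to 5.81 in WT hearts, so that the KI:KO hearts spread more widely (SD 1.18 against 0.11, n = 3 each). Without KI:KO replicate 1 the changes were 1.05 for Lox and 0.48 for Loxl1. Among proteoglycans that bind microfibril components, Vcan rose by 1.04 and Bgn by 0.67 (adjusted p = 0.00937 and 0.0127), and the adhesion protein Svep1 rose by 0.61 (adjusted p = 0.0241). Ltbp2, a latent TGF-β binding protein of microfibrils, rose by 1.10 (adjusted p = 0.0349), or 0.71 without KI:KO replicate 1, its highest heart at 7.49 beside 6.24 and 6.39. Ltbp1, Ltbp3 and Ltbp4 were not called. Their means were 7.92, 7.24 and 9.84 in WT hearts and 7.75, 7.34 and 9.95 in KI:KO hearts. Lox and Ltbp2 did not pass the threshold of the methods' test.

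These counts moved with single arrays. Without any 1 of the WT arrays the KI:KO count was 3 of 27. Lox lost its call without any of the WT arrays, ErbB2 KI replicate 1 or 2 or ERRα KO replicate 3 (adjusted p from 0.0502 to 0.107), Loxl1 without any of the WT arrays (0.0823 to 0.107), Ltbp2 without any of the WT arrays or ERRα KO replicate 3 (0.0515 to 0.114), Svep1 without each WT array and without KI:KO replicate 1 or 3 (0.057 to 0.0928), and Bgn without KI:KO replicate 1 (0.053). Svep1 has several probe sets, whose mean changed by 0.17 (adjusted p = 0.515). Without the 4 arrays that stood apart, the counts were 3 in KI:KO and 0 in ERRα KO hearts. The ERRα KO count became 2 on omission of WT replicate 2 or of KI:KO replicate 3.

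**Figure D4:**
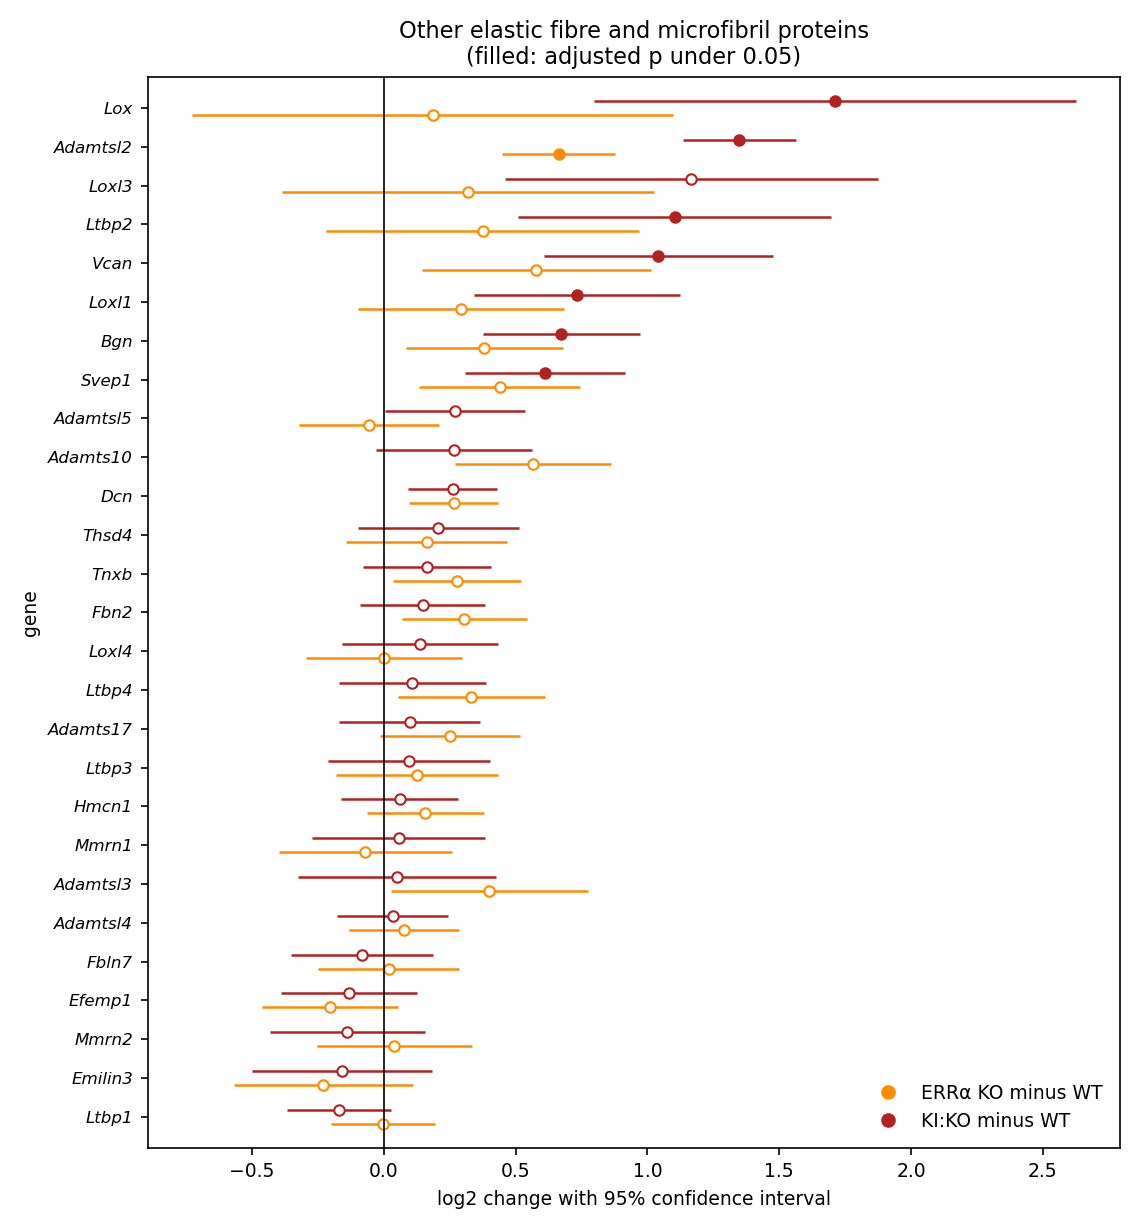
Log2 change against WT with its 95% confidence interval (horizontal axis) for 27 other elastic fibre and microfibril proteins (vertical axis) in ERRα KO and KI:KO hearts, with filled points for an adjusted p under 0.05. Filled points are the KI:KO changes of 7 genes, from 1.71 for Lox to 0.61 for Svep1, and Adamtsl2 at 0.66 in ERRα KO hearts, and both comparisons share the WT hearts.

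Genes for elastin breakdown, its inhibitors and cell receptors (24 of 25 measured) had 3 rising in ERRα KO hearts and 7 in KI:KO hearts and none falling, also at an unadjusted p under 0.05, with medians of 0.11 and 0.34. Of all genes, 1.14% and 2.94% rose in these comparisons. The metalloproteinase inhibitors Timp2 and Timp3 and the gelatinase Mmp2 rose in both, by 0.47, 0.48 and 0.55 in ERRα KO hearts and by 0.49, 0.69 and 0.52 in KI:KO hearts. In these 3 genes every ErbB2 KI heart also lay above every WT heart, though none was called there. Timp3 was at 9.32 to 9.59 in ErbB2 KI hearts and at 8.95 to 9.08 in WT hearts. In KI:KO hearts Lgals3, which encodes galectin-3 (1.01), the lysosomal protease Ctsk (0.67), Ctsa (0.40) and Timp1 (2.29) rose as well. The proteases Elane, Mmp7, Mmp9, Mmp12, Mmp14, Ctsl and Ctss of the list were not called. Their WT means were 4.35, 4.0, 5.49, 3.85, 7.96, 8.55 and 7.76. Their KI:KO means were 4.39, 3.78, 5.60, 4.39, 8.31, 8.68 and 8.71. No integrin gene of the list was called, with means in WT and KI:KO hearts of 7.04 and 6.40 for Itga8 and 8.13 and 8.74 for Itga5. Timp1 was at 6.01, 7.03 and 9.27 in KI:KO hearts (SD 1.67, n = 3) and at 5.13 to 5.16 in WT hearts. Its change was 1.38 without KI:KO replicate 1, the highest, and its call ended without any of the WT or ErbB2 KI arrays, KI:KO replicate 2, or replicate 1 or 3 of ERRα KO (limma adjusted p from 0.0511 to 0.102), and it did not pass the threshold of the methods' test. These genes were named after their values were seen. Omission of each WT array or of ERRα KO replicate 1 brought the count in ERRα KO hearts to 0, and of ERRα KO replicate 3 to 1. With the replicate block it was 1, Timp2 (adjusted p = 0.0518) and Timp3 (0.0706) not passing, and it was 0 in a fit of the 2 groups and over all probe sets. In KI:KO hearts it was 4 on omission of each WT array, and without the 4 arrays that stood apart the counts were 0 and 4.

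Genes whose pattern over the 12 hearts was nearest to that of a called gene were found by the root mean square difference after each gene was centred on its own mean. For Fbln2 these were Qsox1 (0.094), Ccdc80 (0.10) and Tgfb3 (0.11), beside a spread of 0.44 for Fbln2 itself. For Fbln1 they were Ephx1 (0.099), Dpep1 (0.11) and Timp2 (0.12), of which Dpep1 and Timp2 are in the lists above, beside 0.30 for Fbln1. The nearest to Mfap5 were Cd68 (0.14), Ltbp2 (0.17) and Lyz2 (0.20), beside 0.62 for Mfap5, and to Mfap4 they were Lyz2 (0.17), Ifi30 (0.17) and Fxyd5 (0.17), beside 0.48. Cd68 and Lyz2 are in the macrophage list. For Eln they were Lrrc25 (0.16), Sfrp1 (0.16) and Actn4 (0.19), beside 0.38, and for Emilin2 Rbms3 (0.12), Mxra8 (0.14) and Lsp1 (0.14), beside 0.32. All are a description over 12 hearts in 4 genotypes, and genes that differ between genotypes in the same direction are near each other by this measure.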

How the data were processed

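Heart RNA of 12 male FVB mice, 3 per genotype, was hybridised to 12 Affymetrix Mouse Gene 2.0 ST arrays. RMA normalization was done by the authors with Expression Console 1.4.1, and the deposited table of log2 values, 1 per probe set and array, was used unaltered. Of 41345 probe sets, 23521 were annotated to 1 gene, 1820 to several and 16004 to none here. For each of the resulting 22180 genes the probe set of highest mean over the arrays was kept. RMA shrinks differences of dim probe sets, and the number of arrays limits the precision.

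The 4 group means were fitted in 1 limma model (limma 3.58.1 in R 4.3.3) with 8 residual and 3.81 prior degrees of freedom. Tests were two-sided, and p-values were Benjamini-Hochberg adjusted over all genes within each of 8 comparisons. The labels call the samples biological replicates. The members and lists were chosen with earlier results of these data known. All members were named, those called were given by heart, and of other lists the 6 genes with the smallest p in KI:KO hearts (pathway) or up to 3 with the highest mean (markers) were eligible for naming, other names being given after their values were seen. Deviations of same-numbered hearts had a correlation over 0.1 in 3 of 18 pairs (range -0.19 to 0.20). The replicate 1 hearts of all genotypes nevertheless lay on the same side of the first component within genotypes (0.12 to 0.27). Alternatives were the one-way ANOVA of the methods (p under 0.05 and at least 1.2-fold, and adjusted), a fit of the 2 groups only, a filter on dim genes (below the 40th percentile), quantile normalization, a test over all probe sets, averaging of each gene's probe sets, median centring, an intensity trend, a replicate block and leaving out each array, and, added after seeing the data, a block for 4 arrays and their omission, and the same alternatives for genes and counts of other lists. Python 3.11.15 with matplotlib 3.10.9 drew the figures.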

Additional observations from a re-analysis of the deposited data

How the results depend on the processing

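Of 1647 values of the 9 genes under the alternatives, 1538 kept direction and side of the threshold, 67 lost and 22 gained a call, and 20 turned in sign. In ERRα KO against WT hearts (1 gene called) the count was 0 by the adjusted ANOVA, 7 at the methods' threshold, 0 in a fit of 2 groups, 2 with the filter on dim genes, 0 over all probe sets, 2 with the intensity trend, 0 without the 4 arrays that stood apart, and 0 to 1 with 1 array left out. For KI:KO against WT (5) it was 0 by the adjusted ANOVA, 3 over all probe sets, 2 without those 4 arrays and 3 to 6 with 1 array left out, the lowest without WT replicate 2. For KI:KO against ErbB2 KI (3) it was 0 by the adjusted ANOVA and in a fit of 2 groups, 1 over all probe sets and without the 4 arrays, and 1 to 3 with 1 array left out. For ERRα loss (6) it was 3 without the 4 arrays and 5 to 8 with 1 left out. The replicate block ended the calls of Mfap4 in KI:KO against ErbB2 KI (adjusted p = 0.0589) and of Eln for ERRα loss (0.0591) and no other of the 9 genes. With it the elastin breakdown list had 1 call in place of 3 in ERRα KO hearts, and Ctsk (0.0520) did not pass in KI:KO hearts. For KI:KO against WT, the adjusted ANOVA called 1, 1, 0 and 2 genes of the other pathway, elastin breakdown, fibroblast and macrophage lists, where limma called 7, 7, 4 and 9. The first of these lists had 2 in a fit of 2 groups and 3 over all probe sets, the second 4 and 4, and fibroblast markers 7 with the filter on dim genes or the intensity trend. In ERRα KO hearts the first 3 lists, with 1, 3 and 3 in limma, had 0 by the adjusted ANOVA, and at the methods' threshold the first had 10 and fibroblast markers 10. The causes of these shifts were not tested. The methods' threshold uses an unadjusted p, and the share of all genes passing it was not counted for the 9 genes or any list.

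Values that turned in sign were none of the calls. For the averaged ErbB2 knock-in, Fbln5 was -0.039 without the 4 arrays. For the interaction, Eln was -0.00086 after quantile normalization and -0.16 without the 4 arrays. With 1 array left out, the change ran from -0.028 to 0.21 for Fbln5 and from -0.15 to 0.013 for Mfap2 in ErbB2 KI against WT, and from -0.0082 to 0.57 for Emilin1 in KI:KO against ERRα KO. The averaged knock-in gave -0.049 to 0.070 for Fbln5, -0.065 to 0.23 for Emilin1 and -0.090 to 0.015 for Emilin2, and the interaction -0.21 to 0.18 for Eln and -0.21 to 0.017 for Fbln1. The number of arrays, 3 per genotype, limits the precision.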
